A study of Caenorhabditis elegans with 4 samples.

Results

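RNA polymerase II makes the messenger RNA of protein-coding genes, and the regions described here are the stretches of chromosome III of the nematode *Caenorhabditis elegans* at which it was enriched in early embryos. They are all lines for chromosome III in the deposited list of enriched regions, 1618 of the 8121 regions in the list (19.9%), and they were chosen by chromosome alone. Per the labels, the embryos came from N2, the wild-type laboratory strain, hermaphrodites grown in liquid culture at 20 degrees Celsius and fed on bacteria, with no transgene, mutation or drug treatment named for any library. The 4 libraries are 2 chromatin immunoprecipitates (ChIP) and 2 inputs, the inputs being DNA that was not precipitated, and all 4 share strain, genotype and stage. The antibody named for the ChIP libraries is 8WG16, a mouse monoclonal antibody against the repeated C-terminal tail of AMA-1, the largest polymerase subunit. The protocol text shared by the libraries speaks instead of an anti-GFP serum, and the antibody field was followed here.

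The tail recognised by 8WG16 consists of heptapeptide repeats that become phosphorylated as the polymerase passes from initiation into elongation, and 8WG16 is known to bind best to tails with little phosphate. A ChIP region marks where the polymerase sat, engaged or paused, and does not by itself measure RNA. Worm autosomes have a layout that matters for a map of this kind: in each of them a long centre, where meiotic crossovers are rare and essential genes are common, is flanked by arms that recombine often and carry more repeats. On chromosome III the limits used here were 3.72 Mb and 10.34 Mb, applied to the midpoint of each region, so that the left arm lies below the lower limit and the right arm starts at the upper limit.

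The 4 libraries were combined by the authors into 1 list, so the values below come without replicate error, and samples or conditions could not be compared. The list gives each region's first and last base, in WormBase release WS180 coordinates, and a q-value, which is a p-value corrected for multiple tests. Numbers of ChIP and input reads were recovered from the q-values, which gave exact binomial tails once the correction for multiple tests was undone. This succeeded for all 1618 regions, with 331344 ChIP reads and 134302 input reads in all. Input numbers are those used in the authors' test, which may have been scaled. A region held 151.5 reads of both kinds at the median, between 29 and 4993. The fold of a region is its ChIP reads divided by its input reads, with a 95% Clopper-Pearson interval for counting error only. For medians and shares the 95% intervals are exact binomial ones that treat regions as separate draws. Neighbouring regions are not independent, so these intervals are descriptions and not tests. The total depth of each library is unknown. Regions were not assigned to genes, since the gene table at hand belongs to another assembly, and the embryonic stage was not checked against marker genes for the same reason.

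Per Mb, chromosome III was second among the 6 chromosomes in number of polymerase II regions and first in the length they covered. Its regions lay between 62692 and 13773991, a span of 13.7 Mb, at 118 regions per Mb. Chromosome I had 128.5 per Mb and chromosome II, next below, 95.5. The regions of chromosome III covered 92.2 kb per Mb, or 9.22% of the span, against 88.5 on chromosome I and 45.3, the lowest of the 6, on the X. With 1 chromosome of each kind these orders have no test. Against the other 5 chromosomes summed, chromosome III had 1.56 times as many regions per Mb (95% binomial interval 1.48 to 1.65) and 1.32 times the covered length per Mb. That sum includes the X chromosome, which had 26.2 regions per Mb, against 64.7 to 128.5 on the other 4 autosomes. The X chromosome therefore raises both ratios.

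The regions ran the whole length of the chromosome, and number and covered length were divided differently between the centre and the arms. The left arm held 457 regions, or 125 per Mb, the centre 735, or 111 per Mb, and the right arm 426, or 124.1 per Mb. The centre thus had 45.4% of the regions (43.0 to 47.9%) on 48.3% of the span. In covered length the order was the other way round, with 77.1 kb per Mb in the left arm, 100.3 in the centre and 92.8 in the right arm, so that the centre carried 52.5% of the covered length. It also held 53.8% of the ChIP reads in regions. The lower number in the centre depended on how neighbours were counted and, in its size, on the limits. When regions under 1000 bp apart were joined, the centre had 68.9 per Mb and both arms together 67.7 per Mb. Limits moved outward by 0.5 Mb gave 115.5 per Mb in the centre and 121.2 in the arms. Moved inward by 0.5 Mb, they gave 115.8 and 119.5, and the central 33.3% of the span gave 113.6 and 120.2.

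**Figure D1:**
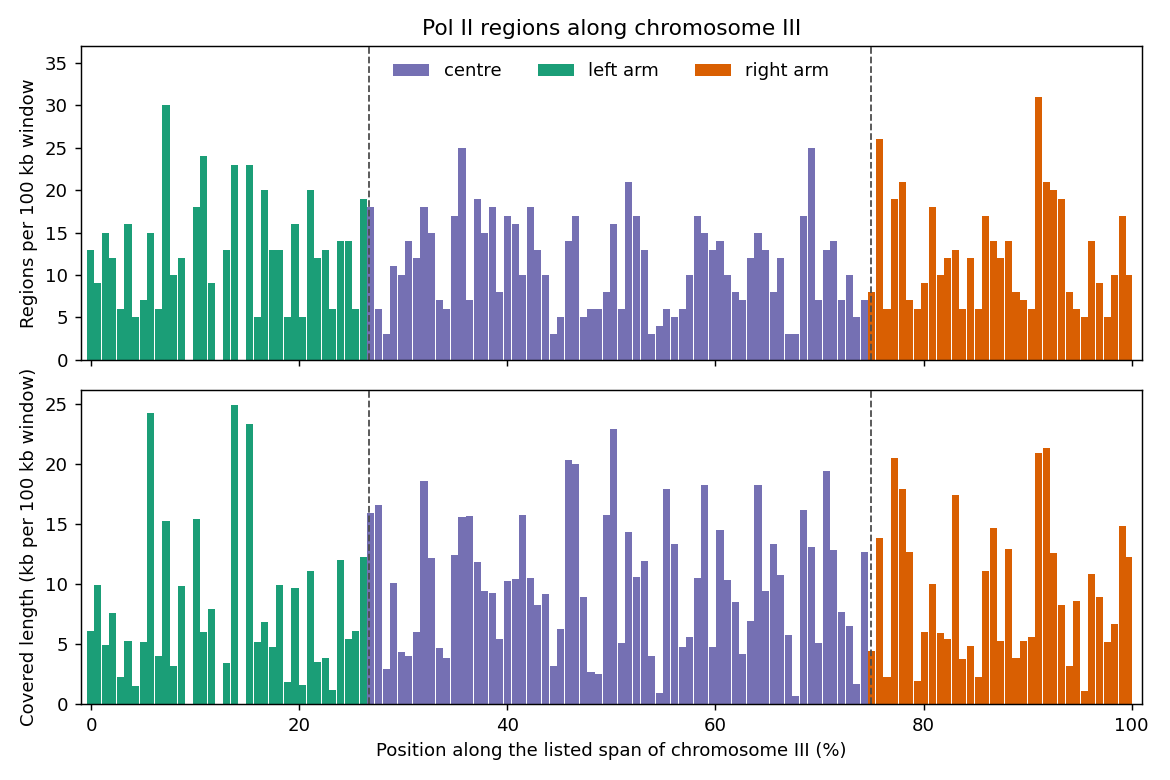
Number of regions (top) and length covered by them in kb (bottom) in fixed windows of 100 kb, along the span between the first and the last listed region of chromosome III; dashed lines mark the limits of the centre, and the last window is shorter. The fullest windows, with 31 and 30 regions, lie in the arms, and the 3 empty windows lie in the left arm.

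By complete 1 Mb bin the number of regions went from 90 to 146. The bin from 6 to 7 Mb held the 90 and the next, from 7 to 8 Mb, held 91, both in the middle of the chromosome. The bin from 12 to 13 Mb in the right arm held 146, followed by 141 between 5 and 6 Mb in the centre and 139 between 1 and 2 Mb in the left arm. The bin with the fewest regions was the one with the most covered length, 111.9 kb, at a median width of 667.5 bp, whereas the first bin of the chromosome had the least covered length, 71.2 kb, at a median width of 325.5 bp. A count of regions and a covered length therefore rank these stretches differently. Over the 137 complete windows of 100 kb, regions per window and covered length were related with Spearman's rho = 0.67 (Pearson's r = 0.64), and regions per window and median width with rho = -0.11 (134 windows with a region). The windows share 1 set of libraries and their neighbours are not independent, so these are descriptions without a p.

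Windows of 100 kb held 11.7 ± 6.20 regions (mean and SD over 137 windows), with 12.1 ± 7.08 in the left arm, 11.2 ± 5.50 in the centre and 12.4 ± 6.54 in the right arm. The fullest lay in the right arm from 12500001 to 12600000, with 31 regions and 21.0 kb covered. It was followed by the left arm from 1000001 to 1100000, with 30 regions and 15.3 kb, and by the right arm from 10400001 to 10500000, with 26 regions and 13.8 kb. All 3 were in the arms, where 11 of 71 windows held 20 or more regions, against 3 of 66 in the centre. The place of the fullest window moved with the window size, to 1050001 to 1100000 with 22 regions for windows of 50 kb and to 1400001 to 1600000 with 42 regions for windows of 200 kb. The largest covered length, 24.9 kb with 23 regions, lay in the left arm from 1900001 to 2000000, next to an empty window. At the low end, 3 windows had no region, from 1300001 to 1400000, from 1700001 to 1800000 and from 2000001 to 2100000, all in the left arm. In the centre the lowest number was 3, found in 5 windows, of which that from 9300001 to 9400000 had 0.704 kb covered. The left arm thus contained both some of the fullest windows and every empty one.

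By their medians, regions were wider in the centre than in the arms, though not at like total reads, as given below. The median width was 526 bp in the centre (472 to 589 bp), 325 bp in the left arm (288 to 364 bp) and 397 bp in the right arm (345 to 482 bp). The interval of the centre did not overlap that of the left arm and overlapped that of the right arm slightly. Over the whole chromosome the median was 425.5 bp, with quartiles of 194.2 and 898.8 bp, and the widths ran from 1 to 10953 bp. Regions under 200 bp made up 160 of the 457 regions of the left arm, 123 of 426 in the right arm and 140 of 735 in the centre.

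At the narrow end, 50 regions (3.09%, 2.30 to 4.05%) were under 20 bp, of which 24 lay in the left arm, 9 in the centre and 17 in the right arm. The narrowest, at 1 bp, were 8 in number, and the one at 5156265 had 34 ChIP and 11 input reads (fold 3.09, 1.53 to 6.76). How the authors assigned reads to so short a region is not stated, and reads per kb are therefore not given. Regions under 20 bp had a median fold of 3.47 at a median of 39 reads, so that few reads lie behind each of these folds. The 72 regions of 3000 bp or more, 46 of them under 5000 bp and 26 at or above, were 4.45% of the regions and covered 27.3% of the covered length.

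The 5 widest regions lay in the centre and in the right arm. The widest, in the centre from 6837432 to 6848384, spanned 11.0 kb and its 2841 ChIP and 1488 input reads gave a fold of 1.91 (1.79 to 2.03). The second, from 7728556 to 7739114, was 10.6 kb wide with a fold of 2.95 (2.76 to 3.14), and the next, from 6951274 to 6960332, was 9.06 kb wide with 2.42 (2.25 to 2.60). Both of the others were in the right arm, from 10809995 to 10818730 (8.74 kb, fold 2.45, 2.26 to 2.67) and from 11460208 to 11468708 (8.50 kb, fold 2.93, 2.70 to 3.18). The widest of them had the lowest fold of the 5, below the chromosome's median of 2.41, and the low q-value of 8.97e-94 it carries goes with its 4329 reads. The left arm's widest region, at 6.90 kb, was from 1445967 to 1452867.

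**Figure D2:**
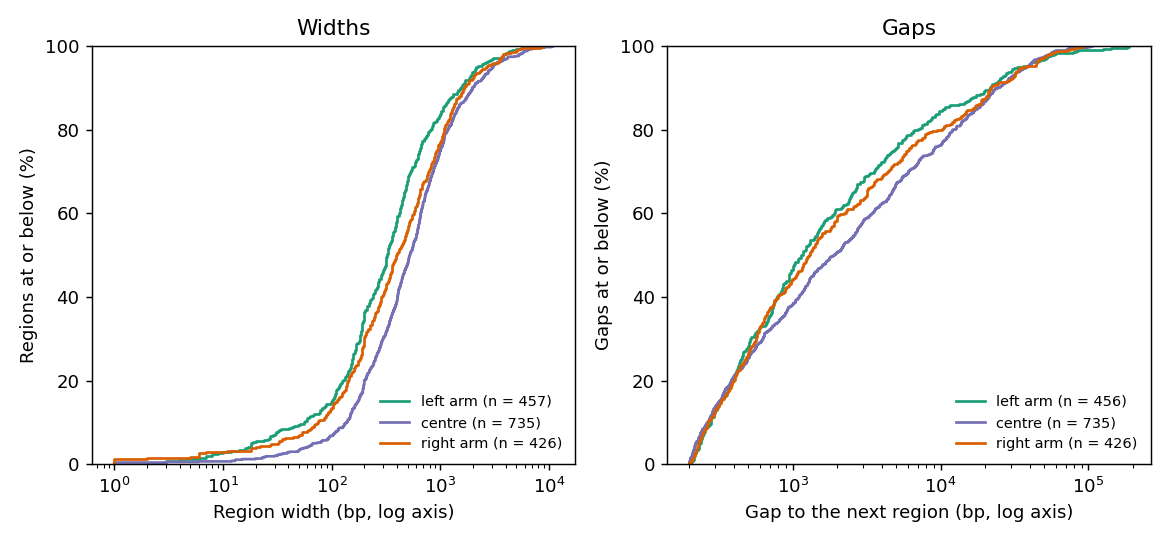
Cumulative share of regions by width (left) and of gaps between neighbours by length (right) in the 3 parts of chromosome III, with log axes in bp. The curve of the centre lies to the right of both arms over most widths, and the median gap is 1904 bp there against 1156 and 1298 bp in the arms.

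The fold of ChIP over input reads was lower in the centre than in either arm. The median was 2.86 in the left arm (2.71 to 3.0), 2.16 in the centre (2.10 to 2.21) and 2.61 in the right arm (2.45 to 2.78), so that the interval of the centre lay apart from both. By 1 Mb bin the median fell from 3.03 (2.88 to 3.27) between 1 and 2 Mb to 1.98 (1.88 to 2.10) between 8 and 9 Mb, and was 2.93 (2.50 to 3.25) between 12 and 13 Mb. At both chromosome ends it was below these peaks, with 2.65 (2.39 to 3.11) in the first bin and 2.51 (2.19 to 2.68) in the last, shorter bin. The interval of each end bin overlapped that of the peak on its side.

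High folds were rare in the centre. Folds of 5 or more were found at 50 of 457 regions of the left arm (10.9%, 8.23 to 14.2%), at 35 of 426 in the right arm (8.22%, 5.79 to 11.2%) and at 4 of 735 in the centre (0.544%, 0.148 to 1.39%). The 4 of the centre, singled out after their values were seen, were 1 region of 501 bp from 5321701 to 5322201 (193 ChIP and 38 input reads, fold 5.08, 3.57 to 7.40) and 3 regions of 12 to 52 bp with 3 to 7 input reads each. One of the latter, from 5309323 to 5309354, lay 12.3 kb before the 501 bp region. Few reads lay behind many of the high folds of the arms too, since 28 of the 50 in the left arm and 19 of the 35 in the right arm had under 10 input reads. Among regions of 200 bp or more, folds of 5 or more were found at 26 of 297 in the left arm, 1 of 595 in the centre and 15 of 303 in the right arm. Folds of 3 or more made up 46.2% in the left arm, 15.2% in the centre and 38.5% in the right arm. The lowest folds were alike, at 1.22 in the left arm, 1.28 in the centre and 1.33 in the right arm, and regions that missed the q-value limit are not in the list.

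**Figure D3:**
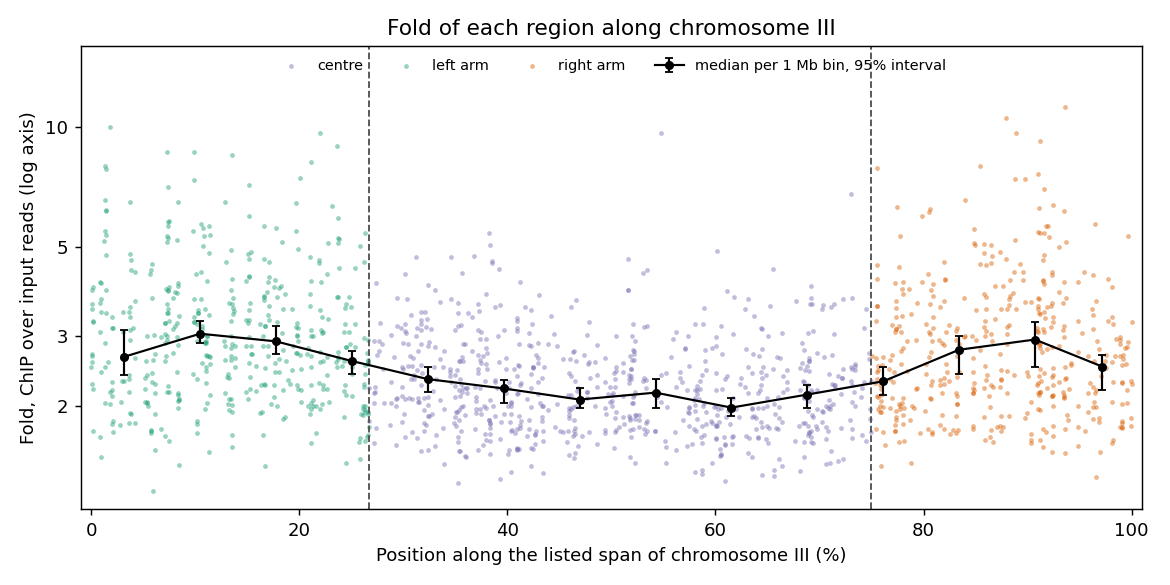
Fold of ChIP over input reads of each of the 1618 regions (points, log axis) along the listed span of chromosome III, with the median and its 95% binomial interval in each 1 Mb bin (black); dashed lines mark the limits of the centre. Medians run from 1.98 to 3.03, and 85 of the 89 regions at a fold of 5 or more lie in the arms.

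At like width the median fold was lower in the centre in all 4 classes of width, though the intervals did not always lie apart. From 200 bp to under 500 bp it was 2.71 in the left arm (2.50 to 2.88), 2.0 in the centre (1.96 to 2.12) and 2.29 in the right arm (2.21 to 2.47). From 500 bp to under 1000 bp it was 2.65 (2.50 to 3.03), 2.03 (1.94 to 2.16) and 2.28 (2.04 to 2.59), with the interval of the right arm overlapping that of the centre. At 1000 bp to under 2000 bp the fold was 2.65 (2.20 to 3.71), 2.13 (1.89 to 2.23) and 2.68 (2.29 to 3.17), and at 2000 bp to under 4000 bp it was 2.66 (2.23 to 4.28), 2.34 (1.98 to 2.87) and 3.06 (2.91 to 4.12). In both of these classes the interval of the left arm overlapped that of the centre.

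A lower fold goes with more input reads or with fewer ChIP reads. The median input reads were higher in the centre than in either arm in every class of width. The median ChIP reads were also higher in the centre below 2000 bp, among regions that passed the q-value limit. At 2000 bp to under 4000 bp the ChIP median of the centre nearly equalled that of the left arm and was below that of the right arm, with overlapping intervals. Among regions of 200 bp to under 500 bp, the median region of the centre held 92 ChIP reads (88 to 96) and 43.5 input reads (41 to 46). In the left arm it held 75 ChIP reads (72 to 80) and 29 input reads (27 to 30), and in the right arm 83 (78 to 90) and 33 (32 to 39). Regions of the centre thus had more reads of both kinds at this width, and relative to the arms the excess was larger for the input. From 500 bp to under 1000 bp the ChIP medians were 140.5, 171.5 and 161 and the input medians 53.5, 81.5 and 71, from left to right. Among regions of 1000 bp to under 2000 bp the median ChIP reads were 295.5 in the left arm, 310 in the centre and 302 in the right arm, with overlapping intervals, while the input reads were 101.5 (88 to 129), 143 (137 to 156) and 112 (96 to 130). At 2000 bp to under 4000 bp the ChIP medians were 667, 666 and 753 and the input medians 223, 309 and 220, from left to right, over 19, 49 and 25 regions. The median width within each class differed little between the parts, for example 331, 338.5 and 316.5 bp in the first class.

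With regions split by total reads into 5 equal classes, the median fold was lower in the centre in each, from 2.67 against 3.22 in the arms at 29 to 71 reads to 2.20 against 3.04 at 364 to 4993 reads. The median width was also lower in the centre in each class, unlike the medians over all regions. It went from 76.5 bp against 102 bp in the arms at 29 to 71 reads to 1756.5 against 1843 bp at 364 to 4993 reads. Input reads are known only for listed regions, and what the difference in them comes from was not tested.

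**Figure D4:**
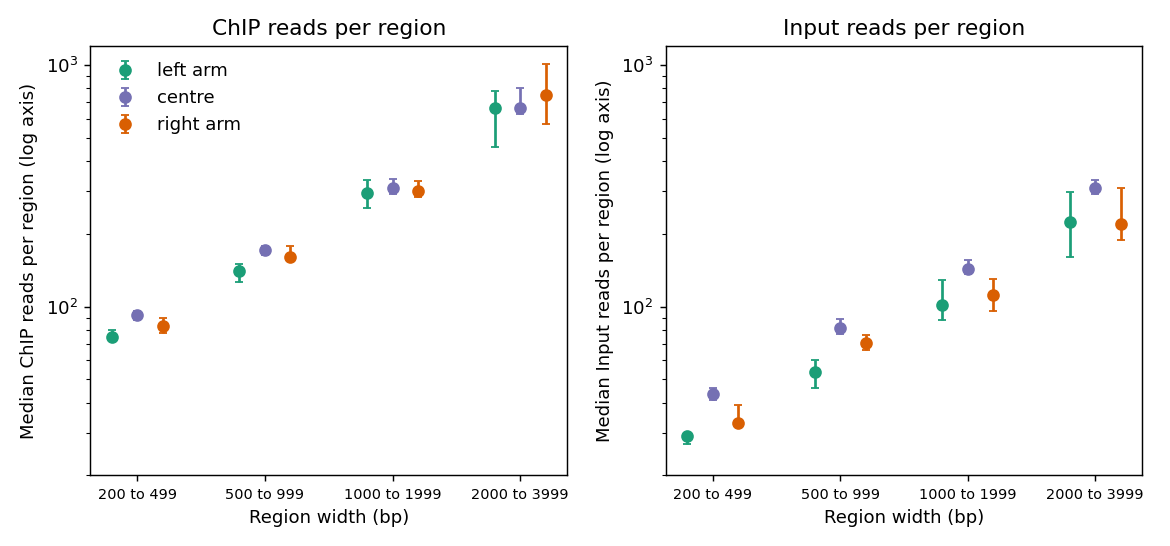
Median ChIP reads (left) and input reads (right) per region in 4 classes of width for the left arm, centre and right arm of chromosome III, on log axes; bars are 95% binomial intervals of the median. At 1000 bp to under 2000 bp the ChIP medians lie between 295.5 and 310, while the input medians are 101.5, 143 and 112.

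The q-values ran from 1.19e-275 to 0.01, and their distribution was similar in the 3 parts. The median of −log10 q was 4.74 in the left arm (4.45 to 5.34), 5.12 in the centre (4.60 to 5.58) and 5.52 in the right arm (5.11 to 6.15), with overlapping intervals. A q-value depends on fold and read number together, and the centre had the lower fold and the higher median read number, 197 per region against 104 in the left arm and 144 in the right arm. Values under 1e-50 were found at 86 regions (5.32%), of which 21 were in the left arm, 38 in the centre and 27 in the right arm. Values of 0.001 or more were found at 377 regions (23.3%). Across the chromosome wider regions had lower q-values (Spearman's rho = 0.72 between width and −log10 q over 1618 regions) and slightly lower folds (rho = -0.21). The fold did not fall steadily with width. Its median was 3.47 under 20 bp, 2.20 from 500 bp to under 1000 bp and 2.71 from 3000 bp to under 5000 bp. The total reads of a region followed its width with rho = 0.98, so that width, reads and q-value are not separate measures. At the limit of the list, the region with the largest q-value lay in the centre from 8019850 to 8020743, with a width of 894 bp, 171 ChIP reads, 125 input reads and a fold of 1.37 (1.08 to 1.74).

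The 12 lowest q-values on chromosome III were spread over all 3 parts. The q-values place 47 ranks above the first line of the whole list. Those ranks are absent from the list and their chromosomes are unknown, so stronger regions of chromosome III may exist. Such regions could also change the widths, covered lengths, folds, read shares and gaps given here. Of the 12, 6 lay in the centre, 2 in the left arm and 4 in the right arm. The 6 regions of the centre were 4.84 to 10.6 kb wide, with folds from 2.95 to 3.57. The first, from 7728556 to 7739114, held 3728 ChIP and 1265 input reads (q = 1.19e-275), a fold of 2.95 over 10.6 kb. It is followed in the centre by the region from 8799353 to 8807289, with 2694 ChIP reads against 801 in the input and a fold of 3.36 (3.11 to 3.64) over 7.94 kb. The other 4 of the centre, from 3867414 to 3873726, from 4490283 to 4496585, from 5023371 to 5029279 and from 9706552 to 9711391, spanned 4.84 to 6.31 kb at folds of 3.23 to 3.57.

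In the right arm, 3 of the 4 were under 4 kb wide, with folds of 5.30 to 9.70. The second lowest q-value of the chromosome belonged to the region from 12366574 to 12369197, which at 2.62 kb held 1615 ChIP reads and 218 input reads (fold 7.41, 6.43 to 8.57, q = 4.09e-261). From 12684849 to 12688445 the fold was 5.30 (4.63 to 6.09) over 3.60 kb. From 12249761 to 12251307 it was 9.70 (7.85 to 12.1) over 1.55 kb, with 931 ChIP and 96 input reads. These 3 lie within 439 kb of each other. The fourth of the right arm, from 11460208 to 11468708, was broad, with a fold of 2.93. In the left arm the region from 1445967 to 1452867 had a fold of 4.29 (3.88 to 4.75, q = 1.23e-226) and that from 864666 to 870398 one of 3.72 (3.38 to 4.09). No interval of the 6 regions of the centre reached the folds of those 3 short regions of the right arm. These 3 were singled out after their values were seen, so this is a description only. The broad region of the right arm, at 2.93, lay below the folds of all 6, the lowest of which was 2.95. Among the 100 lowest q-values, 42 were in the centre (exact interval 32.2 to 52.3%), which includes the centre's share of all regions, 45.4%, and these 100 regions held 34.3% of the ChIP reads in regions.

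In the order of the lower 95% bound on fold, the first 5 regions contained none of the centre. They were led by the region from 12249761 to 12251307 already given. The second, from 12122159 to 12123565, had 358 ChIP reads and 34 input reads over 1.41 kb (fold 10.5, 7.40 to 15.4), and the region from 12366574 to 12369197 followed. The fourth lay just inside the right arm from 10415348 to 10416355, at a fold of 7.90 (5.72 to 11.2) over 1.01 kb with 42 input reads. The fifth lay in the left arm from 1412702 to 1414573, at a fold of 7.36 (5.66 to 9.71), and is the third region after the longest gap of the chromosome. All 5 were between 1.01 and 2.62 kb wide, above the median width of the chromosome and well below the broadest regions.

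The median gap between neighbours was 1421 bp, while gaps of 10 to 50 kb, 286 in number, made up 52.9% of the uncovered length between regions. Of the 1617 gaps, 682 (42.2%, 39.8 to 44.6%) were under 1000 bp, and the shortest was 200 bp. The median gap was 1156 bp in the left arm, 1904 bp in the centre and 1298 bp in the right arm. The share under 1000 bp was 46.9% in the left arm (42.3 to 51.6%), 38.0% in the centre (34.4 to 41.6%) and 44.4% in the right arm (39.6 to 49.2%). The interval of the centre lay below that of the left arm and overlapped that of the right arm. Gaps of 500 bp to under 1000 bp made up 18.9% in the left arm, 12.7% in the centre and 17.8% in the right arm. For gaps of 10 to 50 kb the order was the reverse, at 12.3%, 21.2% and 17.4%. Gaps of 50 kb or more were 46 in number (2.84%) and held 27.6% of the uncovered length between regions. Of each part's own gap length they held 40.0% in the left arm, 21.9% in the centre and 25.3% in the right arm.

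The 4 longest gaps were all in the left arm. The longest ran from 1222249 to 1408971, 186.7 kb. The second, from 1626960 to 1809565, measured 182.6 kb, the third, from 1958767 to 2101233, 142.5 kb, and the fourth, from 647094 to 773382, 126.3 kb. The first 3 of them lie within 0.879 Mb and frame dense stretches. The 218 kb between the first and the second hold 51 regions, among them the strongest of the arm, and the 149.2 kb between the second and the third hold 36. The fifth, in the centre from 9234557 to 9341878, measured 107.3 kb. The longest gap of the right arm was 93.7 kb. Among the 6 chromosomes, chromosome III had the shortest longest gap, since the longest gaps of the others ran from 202.3 kb on chromosome I to 482.6 kb on chromosome V. This order has no test.

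Runs of close neighbours contained most of the regions. When regions under 1000 bp apart were taken as 1 run, 1046 of the 1618 regions (64.6%) lay in 364 runs of 2 or more, and 572 stood alone. In the left arm 70.0% of the regions were in runs, in the centre 60.7% and in the right arm 65.7%. The 2 runs with the most regions, 12 each, were in the right arm. The longer one, from 10657056 to 10678192, covered 80.8% of 21.1 kb, with folds from 1.72 to 6.32 and widths from 187 to 3763 bp. The other, from 12554479 to 12571297, lies in the fullest window and had folds from 1.65 to 9.25. The third run, in the left arm from 2133792 to 2152131, had 11 regions over 18.3 kb at a median fold of 4.21, and it starts 32.6 kb after the third longest gap. The longest run of the centre had 9 regions. Neighbours under 1000 bp apart had folds related with Spearman's rho = 0.31 (682 pairs), and neighbours 20 kb or more apart with rho = 0.12 (200 pairs). The first value includes any enriched stretch that was listed in pieces, and how many there are was not tested.

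The division into a centre of wide regions with low fold and arms of narrow regions with higher fold was also present on other autosomes. These were cut at the same fractions of their spans (26.7% and 74.96%), and regions were not matched for total reads. The median width was larger in the centre on all 6 chromosomes, by 1.47 times on chromosome III, 1.52 times on IV, 1.51 times on V, 1.29 times on I, 1.22 times on II and 1.11 times on the X chromosome. For the fold, the centre's median minus that of the arms was -0.57 on chromosome III, between -0.58 and -0.35 on the other 4 autosomes and -0.02 on the X chromosome. Chromosome III is therefore within the range of the autosomes in both. The share of regions with a fold of 5 or more was 0.544% in its centre, against 1.44 to 3% in the centres of the other autosomes, and 9.63% in its arms, against 5.16 to 10.1%. The first value is the lowest of the 5 autosomes, on 4 regions, and the difference was not tested. The limits come from chromosome III and need not be those of the other chromosomes.

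**Figure D5:**
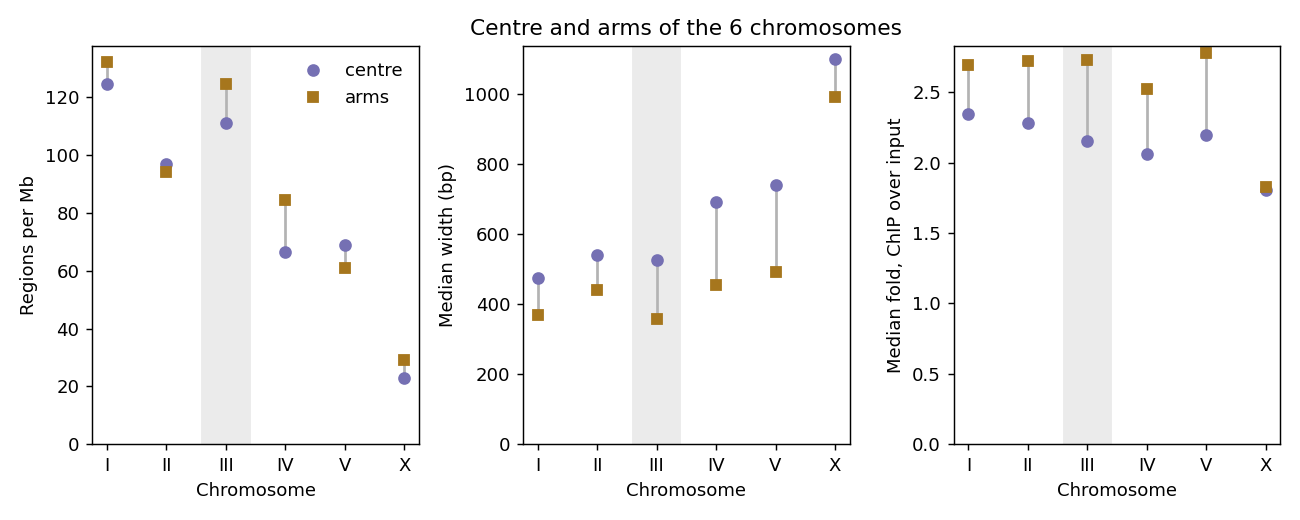
Regions per Mb, median width in bp and median fold of ChIP over input reads in the centre (circles) and both arms (squares) of the 6 chromosomes, the others cut at the fractions of chromosome III (grey band). On chromosome III the centre has 111 against 124.5 regions per Mb, a median width of 526 against 357 bp and a median fold of 2.16 against 2.73.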

How the data were processed

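The 4 libraries (2 ChIP, 2 input) are represented by 1 combined list. Per the file headers, coordinates are those of WormBase WS180 and regions were found with PeakSeq, and the authors deposited 1 q-value per region, that is, a p-value adjusted for multiple tests. No source used here gives the PeakSeq version, the read mapper, the library depths or how replicates were combined. The members, limits and measures were chosen with earlier results of these data known.

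Ranks were recovered where neighbouring lines had equal p (2665 pairs), which put 47 ranks before the first line. With 18572 tested regions, q times rank divided by that total matched an exact upper binomial tail (probability 0.5, tolerance 1e-09 in ln p) for 1 pair of read numbers at 8116 of 8121 regions, and at 0.0% with a total 1 lower or higher. On a simulated list of 3795 regions, 99.9% of the pairs were recovered.

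Regions named are the 12 lowest q-values, the 5 widest, the 5 highest lower limits of the fold, the 5 longest gaps, the 3 fullest and the emptiest windows, the 3 longest runs and the last by q-value, as well as the first and last base. No test was run, since the list has no replicates. As alternatives, the stronger 50% of the regions were taken alone, and other limits, windows and distances, joined neighbours, covered length and a minimum of 100 reads were tried. Sequences are not shown, as no genome of this build was used here. Python 3.11.15, numpy 2.4.6, scipy 1.17.1, pandas 2.3.3 and matplotlib 3.10.9 were used.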

Additional observations from a re-analysis of the deposited data

How the results depend on the processing

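Of 35 alternatives to 8 results, 15 changed the value little, 17 moved it and 3 turned its direction, and the cause was not tested except where stated. Little means that a share or ratio stayed in its binomial interval, or that the medians of centre and arms each stayed in theirs. For the share of covered length it means a move no larger than the interval of the share of regions reaches on either side. For windows it means that the raw count stayed within 1.5 times, wherever the window lay and whatever its size. By this rule windows of 50 kb and 200 kb count as little changed, although the fullest window lay elsewhere. The turned ones were the centre's share of regions with neighbours under 1000 bp joined (48.7%, on 48.3% of the span), and the difference in median −log10 q, centre minus arms, which was -0.12 as reported, 0.11 in the stronger 50% of the regions and 0.057 for the central 33.3% of the span. Limits moved outward by 0.5 Mb, moved inward by 0.5 Mb, or set at the central 33.3% give the centre another length, and its share of regions became 54.4%, 40.2% and 32.1% and of covered length 60.9%, 46.0% and 37.4%. Joined neighbours gave 49.7% of covered length. The ratio of median widths, 1.47, became 1.27 in the stronger 50% and 1.21 with neighbours joined. The difference in median fold, -0.57, became -0.79 in the stronger 50%, -0.51 for the central 33.3% and -0.47 at 100 or more reads. Chromosome III had 1.32 times the covered length per Mb of the other 5, the X chromosome included. Gaps under 1000 bp were 28.5% in the stronger 50%, gaps under 500 bp 26.4% and under 2000 bp 55.8%. With neighbours joined the fullest window held 16, from 4900001 to 5000000. No paired analysis was possible because replicates are merged in the deposited list, and no replicate could be left out. Regions over the q-value limit are not in the list, and depth per library is unknown.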
